A study of Mus musculus with 6 samples.

Results

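Aminoacyl-tRNA synthetases are the enzymes that join each amino acid to its transfer RNA (tRNA), the step that fixes the genetic code. Mammalian cells hold a cytosolic set and a mitochondrial set, and both are encoded in the nucleus. The transcripts of 36 synthetase genes, 20 cytosolic and 16 mitochondrial, were followed in colon macrophages of mice with and without Gsdmd. The list was chosen with earlier results of these data known. Its genes were then taken by symbol from the 17067 genes of each table, with no use of measured values, and all 36 were found. RefSeq gave the same symbol for the gene ID of 35 of them and the newer symbol Mars1 for Mars.

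The macrophages were sorted on CD45, CD11b and F4/80 from the colons of C57BL/6 mice aged 10 weeks. Both groups had colitis induced with dextran sulfate sodium (DSS), a polymer that injures the colon lining, so neither is a healthy control. The groups were wild type (WT, 3 samples) and Gsdmd-/- (3 samples), labelled for the loss of gasdermin D, the pore-forming protein of pyroptotic cell death. The labels do not say how the Gsdmd allele was made, whether a sample pools mice, or whether the samples of a group are separate mice, and p-values therefore measure only sample-to-sample spread, which may be technical.

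Levels are in FPKM, fragments scaled to transcript length and to the mapped fragments of the library. Log2 changes are Gsdmd-/- minus WT on the log2(FPKM + 1) scale, where changes of weakly expressed genes come out too small. A gene is said to have risen or fallen where limma, fitted over all 10005 genes with at least 1 FPKM in at least 3 samples, gave a Benjamini-Hochberg adjusted p under 0.05. By that rule 4059 genes rose (40.6% of those tested) and 3693 fell (36.9%), and the median log2 change of all tested genes was 0.03. Gsdmd itself was at 97.7, 99.4 and 97.4 FPKM in WT and at 28.5, 29.0 and 29.7 FPKM in Gsdmd-/- samples (log2 change -1.72, adjusted p = 1.12e-11), so part of its transcript signal remained. Depth, estimated from the steps of low values, was 19200000 to 21340000 fragments per library. The scaling and the transcript length of the whole series bear on the values that follow. Sums of all FPKM values were 476271 to 485411 in WT and 551502 to 565388 in Gsdmd-/- samples, so rescaling each sample to the same sum (TPM) moved the median log2 change of all genes to -0.17. Across 9852 genes, log2 changes also ran lower with longer transcripts (Spearman rho -0.65) and higher with GC content (Spearman rho 0.50). Both are descriptions across genes, which are not independent. On what is called the length-adjusted scale here, each sample's smooth trend on length and on GC content was subtracted from its log2 values. Both trends were subtracted together, so a shift on that scale cannot be assigned to length alone.

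The sorted cells expressed the surface genes of the gate in all 6 samples. Ptprc (CD45) was at 87.0 to 95.5 FPKM in WT, against 56.2 to 60.7 in Gsdmd-/-, Itgam (CD11b) at 173 to 179 and 87.6 to 95.6, and Adgre1 (F4/80) at 287 to 295 and 212 to 222 FPKM. Of the 10 macrophage markers listed, 5 fell (these 3, Csf1r and Mertk) and 5 rose (Cd68, Fcgr1, C1qa, C1qb and Lyz2). These counts stand beside 36.9% and 40.6% of all tested genes. The 10 markers summed to 9690 to 10381 FPKM in WT and 11417 to 11629 FPKM in Gsdmd-/- samples. On the length-adjusted scale the 5 falls held, but among the rises only that of Fcgr1 did (log2 change 0.28, limma, adjusted p = 7.28e-07). There C1qa (-0.15, adjusted p = 1.67e-05) and Lyz2 (-0.11, adjusted p = 0.00193) fell, and C1qb and Cd68 did not pass. In TPM Lyz2 also fell (-0.095, adjusted p = 0.000452). Markers of B and plasma cells summed to 0.23 to 0.52 FPKM in WT and to 0.49 to 0.86 FPKM in Gsdmd-/-. T cell markers summed to 5.59 to 6.27 and 9.51 to 10.5 FPKM, nearly all of it Cd4 and Lck, which both rose, while Cd3d and Cd3e were at most at 0.11 FPKM. The 9 fibroblast markers summed to 30.6 to 32.2 FPKM in WT and to 83.0 to 84.6 FPKM in Gsdmd-/- samples, and 6 of 6 tested ones rose. Neutrophil markers summed to 31.0 to 35.2 and 40.7 to 44.0 FPKM, most of it Csf3r (28.5 to 31.4 and 36.4 to 38.0 FPKM), which rose. S100a8 and S100a9 were at most at 1.91 FPKM, and Ly6g was at most at 0.06 FPKM. Epithelial markers summed to 3.01 to 3.48 and 1.79 to 2.11 FPKM, nearly all of it Cdh1, which fell. Of the 4 endothelial markers Kdr made up most of the sum and fell, from 54.6 to 57.7 FPKM in WT to 24.5 to 28.9 FPKM in Gsdmd-/-, while Pecam1 (0.35 to 0.38 and 0.72 to 1.04 FPKM) and Emcn (0.14 to 0.29 and 0.63 to 0.78 FPKM) were higher and untested, and Cdh5 did not pass (log2 change 0.13, adjusted p = 0.158). The part of these cells in the synthetase results was not tested, and in bulk samples fewer cells of a type and less RNA per cell cannot be told apart.

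Of the 20 cytosolic synthetases, 17 rose and 2 fell in Gsdmd-/- macrophages, beside 40.6% and 36.9% of all tested genes. Rars, Sars and Kars rose most, Dars and Iars fell, and Nars, the asparaginyl enzyme, did not pass. The median log2 change of the list was 0.39, beside 0.03 for all tested genes, and no member changed 2-fold. In the same 19 genes the 3 Gsdmd-/- samples lay wholly above (17) or wholly below (2) the 3 WT samples, as they did above for 41.2% and below for 38.3% of all tested genes. Summed over the 20 genes, the level was 572, 570.2 and 571 FPKM in WT, against 754, 745 and 764 FPKM in Gsdmd-/- samples. In TPM the sum was 1201, 1175 and 1194 against 1339, 1318 and 1385, so the groups did not overlap on that scale either.

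**Figure D1:**
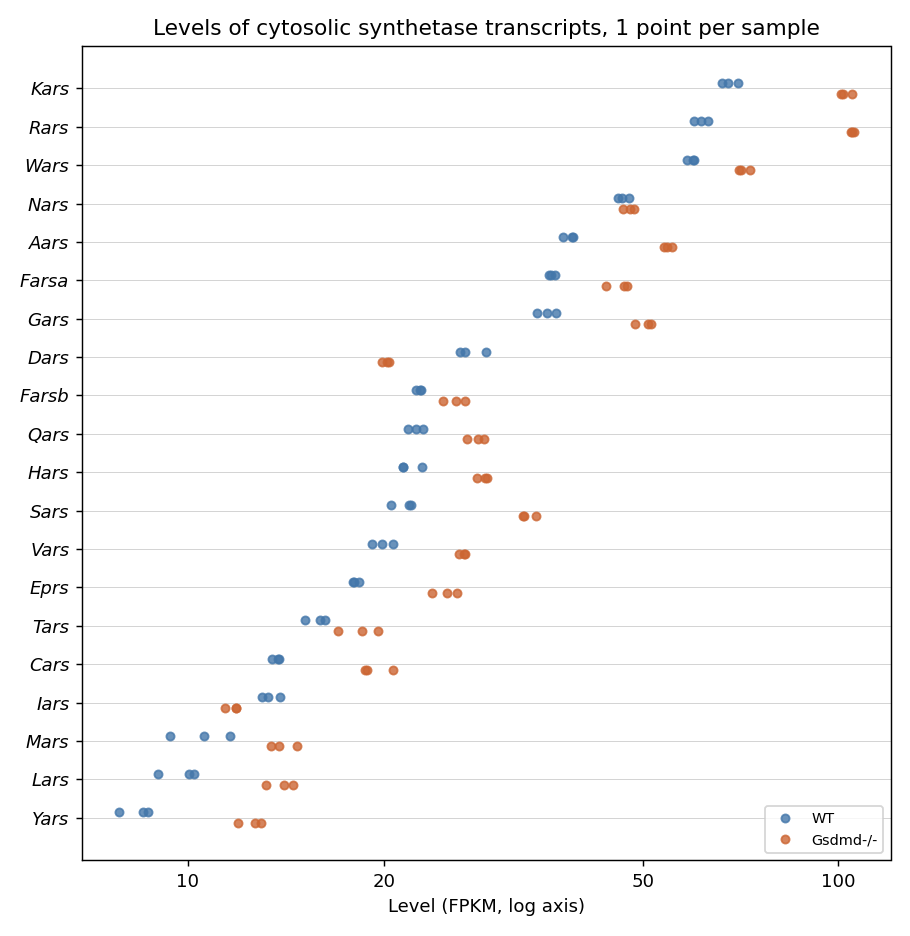
Level of each cytosolic synthetase transcript in FPKM on a log axis, 1 point per sample, with WT in blue and Gsdmd-/- in orange and genes ordered by their WT mean. The Gsdmd-/- points lie to the right of the WT points in 17 genes, to the left in Dars and Iars, and among them in Nars.

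Of the 16 mitochondrial genes 15 were tested, 7 rose and 3 fell, and the median log2 change was 0.13. The 7 are close to the 40.6% of all tested genes that rose, and the 3 are under the 36.9% that fell, so the count alone is no result about this list. All 15 reached the level minimum in both groups. Mars2, the mitochondrial methionyl enzyme, stayed under it, at 0.62, 0.42 and 0.48 FPKM in WT, against 0.29, 0.29 and 0.48 FPKM in Gsdmd-/- samples, and was not tested. The summed mitochondrial level was 68.2, 66.6 and 66.3 FPKM in WT, against 80.4, 79.1 and 79.0 FPKM in Gsdmd-/- samples. In TPM the sum was 143, 137 and 139 in WT and 143, 139.9 and 143 in Gsdmd-/-, so there the groups overlapped. A difference between the cytosolic and the mitochondrial list was not tested.

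Many synthetase genes are known targets of ATF4, the transcription factor made when uncharged tRNA activates the kinase GCN2 (gene Eif2ak4). ATF4 binds with C/EBP proteins at a composite element, searched here as TGATGNAA on both strands (read as TTNCATCA on the other strand). RefSeq windows from 250 bases before to 50 after a transcription start (GRCm38.p6) were found for 27 of the 36 members. The element's letters were present in windows of 5 of 13 cytosolic members (38.5%), 0 of 14 mitochondrial members and 4.51% of all 27025 genes with a window. The stretches that hold them are shown because these members moved in different directions as deposited: Aars, Gars, Yars and Tars rose and Iars fell. On the length-adjusted scale Iars rose too (log2 change 0.12, limma, adjusted p = 0.0308). In TPM Tars did not pass (log2 change -0.0044, limma, adjusted p = 0.951). Each stretch is written 5′ to 3′ on the gene's strand with the match in capitals. Matches after the start, in Iars and Yars, are shown from 30 bases before the start to the end of the match. Aars held a second match 9 bases after the start used for its window. The starts used for Aars and Yars lie inside their RefSeq gene spans, which begin at 111027778 and 129189734. Positions are in GRCm38.p6.
Aars, plus strand, chr8:111033700-111033767: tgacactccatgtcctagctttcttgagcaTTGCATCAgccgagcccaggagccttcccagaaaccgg
Gars, plus strand, chr6:55037941-55038000: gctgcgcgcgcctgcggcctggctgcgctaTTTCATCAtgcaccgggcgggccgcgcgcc
Tars, minus strand, chr15:11399659-11399703: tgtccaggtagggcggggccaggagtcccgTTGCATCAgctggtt
Yars, plus strand, chr4:129189873-129189913: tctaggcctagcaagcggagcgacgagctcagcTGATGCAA
Iars, plus strand, chr13:49682100-49682144: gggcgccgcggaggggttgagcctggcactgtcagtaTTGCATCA

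Yars carries the match on the gene's own strand and the other members on the opposite strand. The E-box CACGTG was found in 4 of 13 cytosolic and 1 of 14 mitochondrial members, beside 8.09% of all genes, and the STAT element TTCNNNGAA in 2 and 1, beside 9.55%. No match of one motif overlapped a match of another. Rars, Sars and Kars, the cytosolic members with the largest rises, were without the composite element's letters in their windows or had no window. A match is a description of letters in a window and not a bound site.

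The cytosolic members fall into those bound in the multi-tRNA synthetase complex and those outside it. The complex holds the enzymes Eprs, Iars, Lars, Mars, Qars, Rars, Kars and Dars on the scaffold proteins encoded by Aimp1, Aimp2 and Eef1e1. Of these 8 enzymes 6 rose and 2, Dars and Iars, fell, beside 40.6% and 36.9% of all tested genes.

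Rars, the arginyl-tRNA synthetase (gene 104458, chromosome 11, 35808381 to 35834528), was at 61.6, 60.0 and 63.1 FPKM in WT and at 105, 106 and 105 FPKM in Gsdmd-/- samples. Every Gsdmd-/- sample was far above every WT sample, and the spread within groups was small. Rars rose 1.71-fold (log2 change 0.76, SE 0.0306, adjusted p = 2.06e-09), the largest change of the cytosolic list. Kars, the lysyl enzyme (chromosome 8, 111993439 to 112011354), makes both a cytosolic and a mitochondrial protein from the same gene. It was at 67.6, 70.2 and 66.3 FPKM in WT and at 102, 101 and 105 FPKM in Gsdmd-/-, again without overlap (log2 change 0.58, SE 0.0329, adjusted p = 1.73e-08).

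Eprs encodes a fused enzyme that charges both glutamate and proline tRNAs. Its levels were 18.03, 18.3 and 17.9 FPKM in WT, against 23.7, 24.99 and 25.9 FPKM in Gsdmd-/- samples, which did not overlap (log2 change 0.44, adjusted p = 2.13e-06). Lars, the leucyl enzyme, which also acts as a leucine sensor for the growth kinase complex mTORC1, was at 10.0, 8.99 and 10.2 FPKM and at 14.1, 13.2 and 14.5 FPKM. All Gsdmd-/- samples were higher (log2 change 0.47, adjusted p = 1.19e-05). Mars, the methionyl enzyme needed for every start codon, was at 9.38, 10.6 and 11.6 FPKM in WT, the widest relative spread among the cytosolic members, and at 14.7, 13.4 and 13.8 FPKM in Gsdmd-/-. It rose all the same (log2 change 0.38, adjusted p = 0.000286). Qars, the glutaminyl enzyme, rose by 0.30, from 22.4 ± 0.575 to 27.8 ± 0.830 FPKM (SD, n = 3 each).

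Dars, the aspartyl enzyme (gene 226414, chromosome 1, 128363707 to 128417416), went the other way. It was at 28.7, 26.7 and 26.2 FPKM in WT and at 20.2, 20.4 and 19.9 FPKM in Gsdmd-/- samples. Every Gsdmd-/- sample was below every WT sample, and the 3 of them lay close together. Dars fell to 0.741 of its WT level (log2 change -0.41, SE 0.0441, adjusted p = 3.54e-06). Iars, the isoleucyl enzyme (chromosome 13, 49682130 to 49734267), was at 13.3, 13.0 and 13.8 FPKM in WT and at 11.9, 11.4 and 11.9 FPKM in Gsdmd-/-. Its fall was smaller (log2 change -0.18, adjusted p = 0.00472), whereas on the length-adjusted scale it had a log2 change of 0.12 (adjusted p = 0.0308). Of its 50-base words 8.39% are shared with Gm4849.

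The scaffold genes also split. Aimp1, whose protein is also released as a cytokine, was at 21.0, 20.4 and 20.4 FPKM in WT and at 30.3, 33.3 and 27.7 FPKM in Gsdmd-/- samples (log2 change 0.54, adjusted p = 4.07e-06). Aimp2 rose by 0.41, from 14.4 ± 0.946 to 19.5 ± 0.28 FPKM (SD, n = 3 each). Eef1e1, which links the methionyl enzyme to the complex, was at 20.4, 23.1 and 20.8 FPKM in WT and at 17.4, 17.2 and 16.9 FPKM in Gsdmd-/-. It fell (log2 change -0.30, adjusted p = 0.000151), and its groups, like those of the other two, did not overlap. Aimp2 did not pass on the length-adjusted scale (log2 change -0.03, adjusted p = 0.668).

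Ratios of levels within a sample do not depend on how samples are scaled to each other. The Rars to Dars ratio was 2.15, 2.25 and 2.41 in WT and 5.19, 5.18 and 5.27 in Gsdmd-/- samples. The Kars to Dars ratio was 2.36, 2.63 and 2.53 in WT and 5.03, 4.94 and 5.29 in Gsdmd-/-. Both ratios were thus far apart between the groups. The Eprs to Iars ratio, 2 long transcripts of the same complex, was 1.36, 1.41 and 1.30 in WT and 1.996, 2.19 and 2.18 in Gsdmd-/- samples. The pairs were picked after their values were seen, so they are descriptions with no test.

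**Figure D2:**
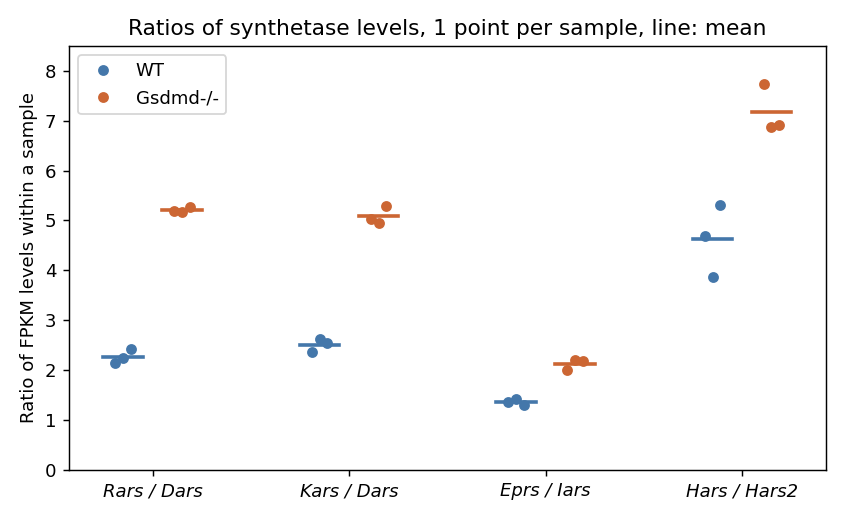
Ratio of the FPKM levels of 2 synthetases within each sample, 1 point per sample, with a line at the group mean, WT in blue and Gsdmd-/- in orange. For Rars over Dars the WT points lie between 2.15 and 2.41 and the Gsdmd-/- points between 5.18 and 5.27, and the groups are apart in all 4 pairs.

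Among cytosolic enzymes outside the complex, Sars, the seryl enzyme (chromosome 3, 108424864 to 108445259), rose most. It was at 20.6, 22.01 and 21.9 FPKM in WT and at 34.2, 32.9 and 32.7 FPKM in Gsdmd-/- samples, with a wide gap between the groups (1.55-fold, log2 change 0.61, SE 0.0418, adjusted p = 7.87e-08). Yars, the tyrosyl enzyme, was the lowest cytosolic member in WT, at 8.54, 8.69 and 7.83 FPKM, and stood at 12.0, 13.0 and 12.7 FPKM in Gsdmd-/-. Its groups did not overlap (log2 change 0.53, adjusted p = 2.77e-06). Aars, the alanyl enzyme, was at 39.1, 37.7 and 39.0 FPKM in WT and at 54.0, 54.5 and 55.5 FPKM in Gsdmd-/- samples, all of them higher (log2 change 0.49, adjusted p = 7.80e-08). Its annotated transcripts share 20.1% of their 50-base words with the neighbouring gene Exosc6, so its level may hold reads of that gene.

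Gars, the glycyl enzyme, like Kars serves cytosol and mitochondria from a single gene. It was at 36.8, 35.7 and 34.4 FPKM in WT and at 51.0, 48.8 and 51.6 FPKM in Gsdmd-/-, with no overlap (log2 change 0.49, adjusted p = 2.51e-07). Cars, the cysteinyl enzyme, was at 13.8, 13.5 and 13.8 FPKM and at 18.9, 18.7 and 20.7 FPKM. All Gsdmd-/- samples were higher (log2 change 0.48, adjusted p = 2.44e-06). Vars, the valyl enzyme, was at 19.9, 20.7 and 19.2 FPKM in WT and at 26.7, 26.1 and 26.6 FPKM in Gsdmd-/- (log2 change 0.39, adjusted p = 3.19e-06). Hars, the histidyl enzyme, was at 21.4, 21.4 and 22.9 FPKM in WT and at 28.8, 27.8 and 28.6 FPKM in Gsdmd-/- (log2 change 0.36, adjusted p = 6.79e-06). In both genes the lowest Gsdmd-/- sample exceeded the highest WT sample.

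Wars, the tryptophanyl enzyme, is a known interferon gamma target and was the third most abundant cytosolic member in both groups. It was at 58.5, 59.7 and 60.0 FPKM in WT and at 70.3, 71.0 and 73.2 FPKM in Gsdmd-/- samples. The groups did not overlap, but the rise was small (1.204-fold, log2 change 0.26, SE 0.0316, adjusted p = 9.88e-06), and it missed the threshold in TPM (log2 change 0.04, adjusted p = 0.286). Farsa and Farsb encode the subunits of the phenylalanyl enzyme, which works as a tetramer of both. Farsa was at 35.9, 36.6 and 36.1 FPKM in WT and at 47.4, 46.8 and 44.0 FPKM in Gsdmd-/- (log2 change 0.34, adjusted p = 5.45e-06), and Farsb rose by 0.17 (adjusted p = 0.00222), from 22.6 ± 0.216 to 25.7 ± 1.01 FPKM (SD, n = 3 each). On neither other scale did both subunits rise: Farsb had a log2 change of -0.04 in TPM (adjusted p = 0.450) and Farsa one of -0.02 on the length-adjusted scale (adjusted p = 0.606). Of the 50-base words of Farsb 8.56% are shared with the opposite strand of Sgpp2.

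Tars, the threonyl enzyme, rose by 0.21 (adjusted p = 0.00440), from 15.8 ± 0.569 to 18.4 ± 1.29 FPKM (SD, n = 3 each), and had no change in TPM past the threshold (log2 change -0.0044, adjusted p = 0.951). Nars was at 47.7, 45.9 and 46.5 FPKM in WT and at 47.9, 46.6 and 48.6 FPKM in Gsdmd-/- samples, and its groups overlapped. Its log2 change was 0.03 as deposited (adjusted p = 0.431), -0.19 in TPM (adjusted p = 0.000622) and 0.11 on the length-adjusted scale (adjusted p = 0.00486). The direction of Nars thus differed with the scale.

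By catalytic fold, class I synthetases, built on a Rossmann fold, and class II synthetases, built on an antiparallel sheet, are compared here by their counts. Of 10 cytosolic class I members, Eprs counted among them, 9 rose and 1 fell with a median log2 change of 0.42. Among 10 class II members there were 8 that rose and 1 that fell, at a median of 0.35. Of all tested genes 40.6% rose and 36.9% fell, and the classes only divide the cytosolic members already counted above. A difference between the classes was not tested.

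The order of levels changed little at the top. In WT, Kars (68.0 FPKM), Rars (61.6) and Wars (59.4) led the cytosolic list, and Yars (8.35) and Lars (9.75) closed it. In Gsdmd-/- samples Rars (105 FPKM) and Kars (102) led, with sample ranges that overlapped. Dars moved from rank 8 to rank 14 of 20, where its samples overlapped those of Cars, and Sars from rank 12 to rank 8. Iars went from rank 17 to the lowest rank, 20, at 11.4 to 11.9 FPKM, just under the 12.0 to 13.0 FPKM of Yars.

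Among mitochondrial synthetases, which serve the translation of the respiratory chain subunits encoded in mitochondrial DNA, Fars2 and Sars2 rose most. Fars2, the phenylalanyl enzyme (chromosome 13, 36117428 to 36537595), was at 7.04, 6.45 and 6.41 FPKM in WT and at 12.6, 11.9 and 10.9 FPKM in Gsdmd-/- samples. Sars2, the seryl enzyme (chromosome 7, 28741957 to 28753879), was at 4.69, 4.66 and 4.60 FPKM and at 7.86, 8.55 and 7.92 FPKM. Neither gene had overlapping groups, and the rises were 1.77-fold for Fars2 (log2 change 0.74, SE 0.0620, adjusted p = 4.29e-07) and 1.74-fold for Sars2 (log2 change 0.69, SE 0.0564, adjusted p = 3.57e-07). The length-adjusted log2 changes were 0.34 and 0.28.

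Cars2 was at 3.71, 3.24 and 3.45 FPKM in WT and at 5.16, 6.04 and 4.88 FPKM in Gsdmd-/- samples (log2 change 0.51, adjusted p = 7.41e-05), without overlap, and did not pass on the length-adjusted scale (adjusted p = 0.0614). Of its 50-base words 17.4% are shared with the opposite strand of Naxd, and whether counting used strand is unknown. Tars2 was at 7.31, 7.36 and 7.80 FPKM and at 10.0, 10.3 and 10.6 FPKM (log2 change 0.41, adjusted p = 1.44e-05). Its 3 Gsdmd-/- samples lay close together above WT. Rars2 rose by 0.25 (adjusted p = 0.000801), from 9.75 ± 0.404 to 11.8 ± 0.387 FPKM (SD, n = 3 each), and missed the threshold in TPM (adjusted p = 0.491).

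Vars2 and Aars2, the valyl and alanyl enzymes, rose from low levels. Vars2 was at 1.36, 1.33 and 1.38 FPKM in WT and at 2.03, 1.78 and 2.31 FPKM in Gsdmd-/- (log2 change 0.36, adjusted p = 0.00106). Aars2 was at 1.68, 1.73 and 1.61 FPKM and at 2.66, 2.11 and 2.15 FPKM (log2 change 0.30, adjusted p = 0.00378), and passed neither in TPM (adjusted p = 0.0915) nor on the length-adjusted scale (adjusted p = 0.0932). Their groups did not overlap. At the estimated depth these levels stand for 113 to 208 fragments of Vars2 and 108 to 175 of Aars2 per library.

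The 3 mitochondrial members that fell were Iars2, Yars2 and Hars2. Iars2, the isoleucyl enzyme and the highest of the mitochondrial list in WT, was at 12.8, 12.3 and 12.9 FPKM in WT and at 10.3, 9.88 and 10.2 FPKM in Gsdmd-/- samples, without overlap (log2 change -0.29, adjusted p = 0.000123). Its log2 change was 0.12 on the length-adjusted scale (adjusted p = 0.0294), and 29.98% of its 50-base words are shared with the opposite strand of Rab3gap2. Yars2 was at 5.41, 5.82 and 4.39 FPKM and at 4.68, 3.72 and 3.82 FPKM, groups that overlapped (log2 change -0.29, adjusted p = 0.0171). Hars2 was at 4.56, 5.54 and 4.30 FPKM and at 3.72, 4.05 and 4.14 FPKM (log2 change -0.22, adjusted p = 0.0276). Its groups did not overlap. Hars2 missed the threshold without WT replicate 2 (adjusted p = 0.130), without Gsdmd-/- replicate 1 (0.0938) and on the length-adjusted scale (0.0766). Yars2 missed it without WT replicate 1 or 2 (adjusted p = 0.0538 and 0.0735) and without Gsdmd-/- replicate 2 or 3 (0.0637 and 0.0636). Both missed it with no filter on low levels (0.0661 and 0.0515), and without WT replicate 2 Iars2 alone, 1 member, fell.

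Hars and Hars2 lie head to head on chromosome 18, Hars ending its span at 36783205 and Hars2 starting at 36783202. Their ratio was 4.69, 3.87 and 5.32 in WT and 7.74, 6.87 and 6.91 in Gsdmd-/- samples, so the neighbours moved apart. They share 146 of their 50-base words on opposite strands, 7.36% of those of Hars and 4.38% of those of Hars2.

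Ears2, Wars2, Pars2, Lars2 and Nars2 did not pass, with log2 changes from -0.04 (Nars2) to 0.13 (Ears2). All but Lars2, at 3.25 to 3.53 FPKM, were at most at 2.10 FPKM in every sample, which for Pars2 meant an estimated 53.2 to 74.3 fragments per library. Ears2 and Wars2 were higher in all 3 Gsdmd-/- samples than in any WT sample without passing (adjusted p = 0.113 and 0.144). Wars2 passed in limma without its trend and robust settings (adjusted p = 0.0423), which made 8 mitochondrial members that rose. Lars2 fell in TPM (log2 change -0.21, adjusted p = 0.0230). On the length-adjusted scale Ears2 had a log2 change of -0.21 (adjusted p = 0.0265), Wars2 one of 0.46 (adjusted p = 0.000223) and Nars2 one of 0.26 (adjusted p = 0.0385).

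**Figure D3:**
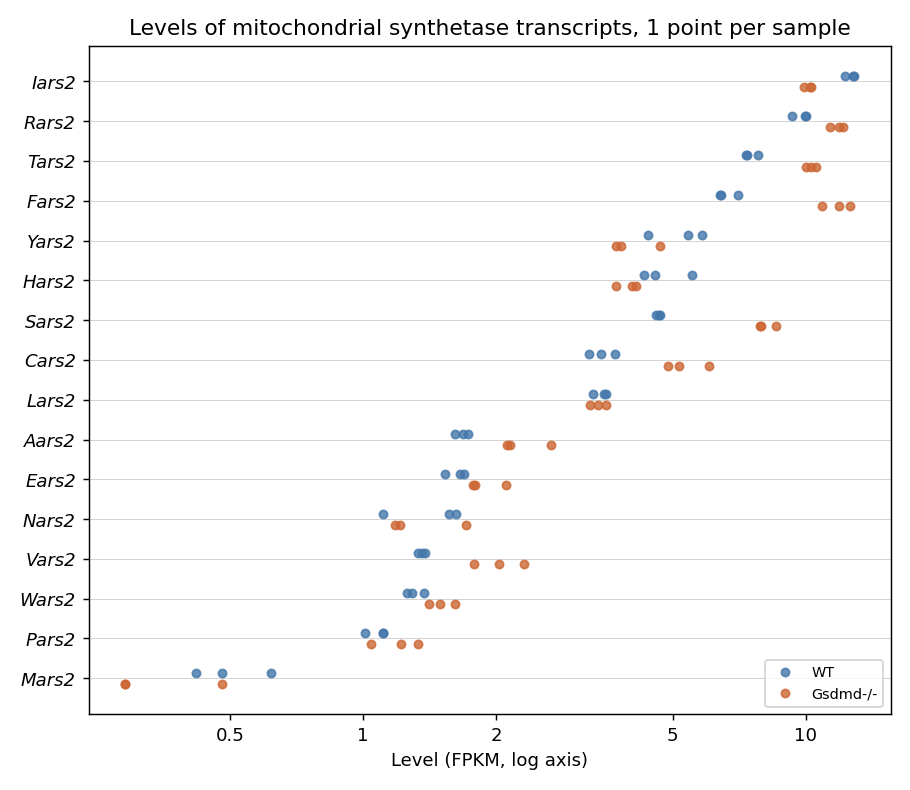
Level of each mitochondrial synthetase transcript in FPKM on a log axis, 1 point per sample, with WT in blue and Gsdmd-/- in orange and genes ordered by their WT mean. Fars2 and Sars2 show the widest gaps upward, Iars2 lies lower in Gsdmd-/- samples, and Mars2 stays under 0.63 FPKM.

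In TPM, 13 cytosolic members rose and 3 fell, beside 25% and 51% of all tested genes, with a median log2 change of 0.18. Dars, Iars and Nars were the 3 that fell on that scale, and Qars, Tars, Wars and Farsb did not pass. In TPM 5 mitochondrial members rose and 4 fell, and their median was -0.0083. On the length-adjusted scale, 18 cytosolic members rose and 1, Dars, fell, beside 30.4% and 30.1% of all tested genes, with a median of 0.38. Of the mitochondrial list, 8 rose and 2 fell length-adjusted, and the median was 0.18. Rars, Sars, Kars, Yars, Aars, Gars, Cars, Lars, Eprs, Vars, Mars, Hars, Fars2, Sars2, Tars2 and Vars2 rose, and Dars and Yars2 fell, on all 3 scales. Transcript lengths of some of these, among them Dars, Yars2, Fars2 and Tars2, are uncertain, and so are their length-adjusted changes.

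**Figure D4:**
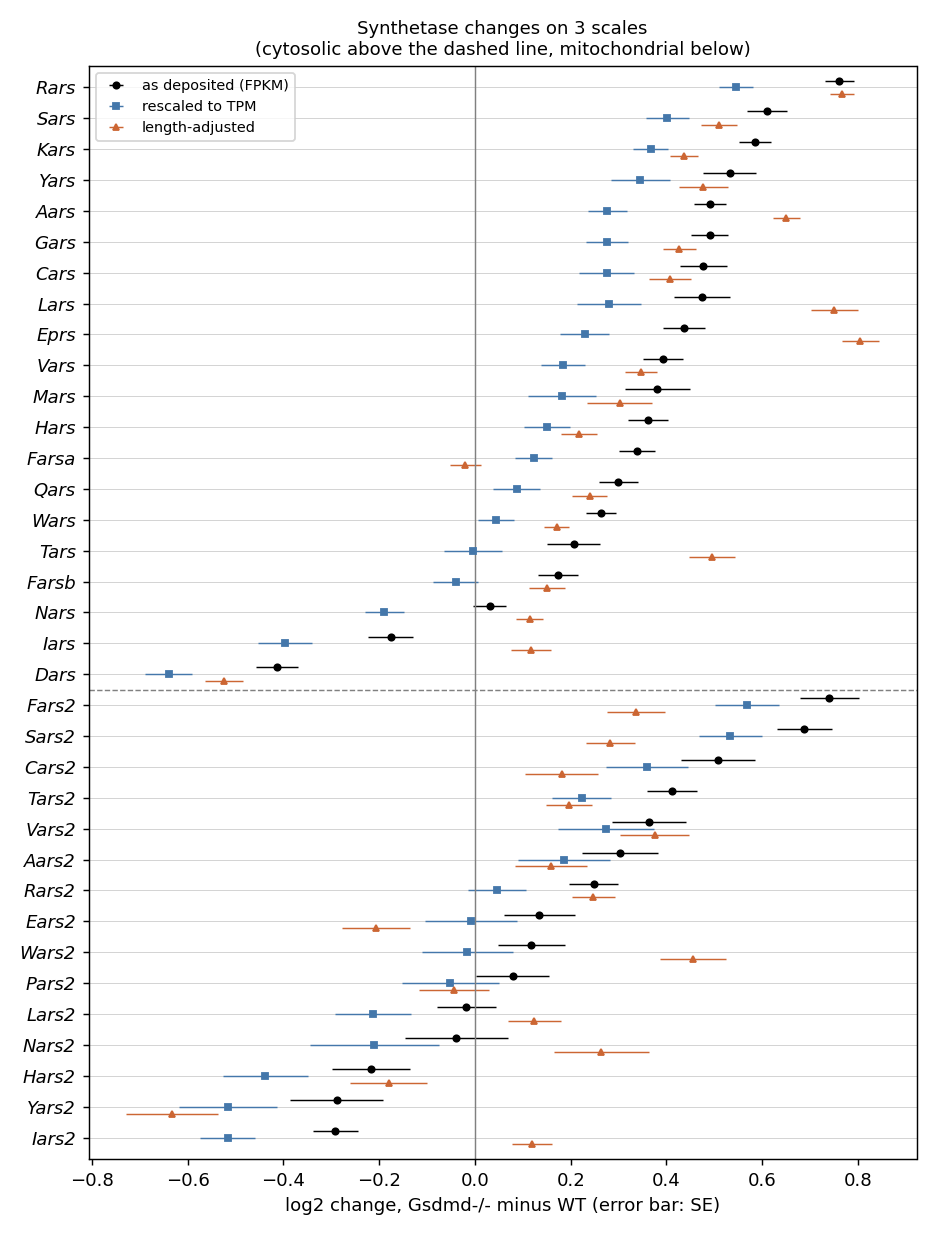
Log2 change, Gsdmd-/- minus WT, of the 35 tested synthetases with its SE, as deposited (black circles), in TPM (blue squares) and length-adjusted (orange triangles). Rars stays between 0.54 and 0.77 on the 3 scales and Dars between -0.64 and -0.41, while Iars, Iars2, Nars and Farsa are among those that cross 0.

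The tested genes were divided by transcript length into 4 bins of equal size. In the bin with the longest transcripts, from 4154 bases, the median log2 change was -0.38, and 3 cytosolic members lay there: Aars (0.49), Eprs (0.44) and Iars (-0.18). The length of Aars, 5750 bases, is from annotated transcripts that share 20.1% of their 50-base words with Exosc6, so its bin is uncertain. In the next bin, 2790 to 4153 bases, all genes had a median of -0.09 and the 7 cytosolic members there were all above 0, with a median of 0.39. In the bin with the shortest transcripts all genes had a median of 0.40, and Dars, annotated at 1410 bases, was the only cytosolic member there. The 2 coding transcripts of Dars hold 2412 different 50-base words, more than 1 transcript of 1410 bases can hold. Its length, its bin and its length-adjusted change are therefore uncertain. Words also exceeded the length used for Yars2 (3188 words, 1574 bases), Fars2 (2438 words, 1543.5 bases) and Tars2 (5155 words, 2356.5 bases), among others. The length-adjusted changes of those members are uncertain too. The log2 changes of Eprs and Lars were larger length-adjusted, 0.81 and 0.75, than as deposited.

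**Figure D5:**
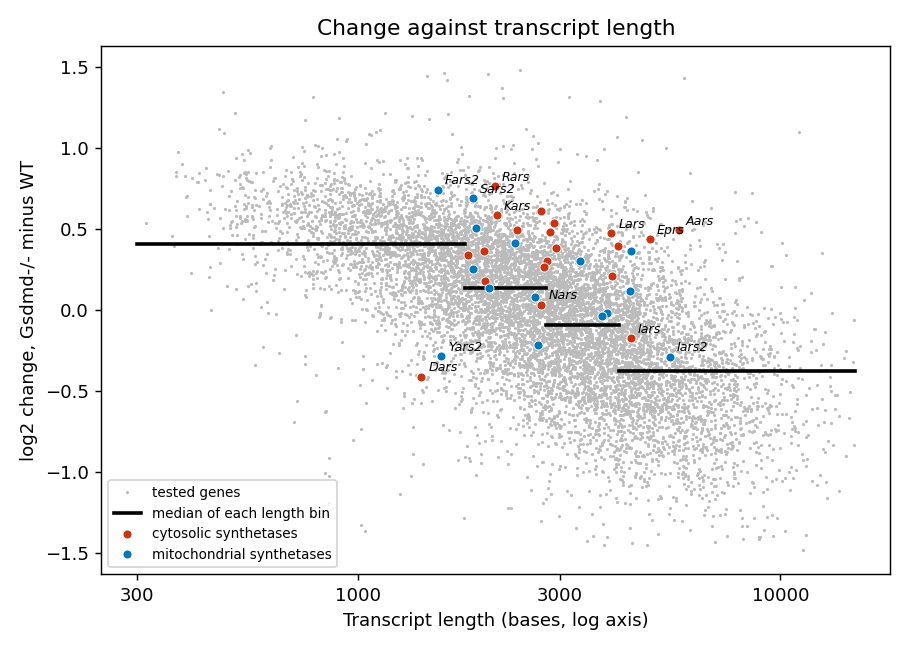
Log2 change, Gsdmd-/- minus WT, against transcript length on a log axis for the tested genes within the plotted range (grey), with cytosolic (red) and mitochondrial (blue) synthetases and black bars at the median of each length bin. The bars step down from 0.40 to -0.38. At the lengths used, Eprs and Aars lie above the bar of the longest bin, and Dars lies below that of the shortest.

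Charged tRNAs are carried to the ribosome by elongation factors, and all 6 listed genes of this step rose, beside 40.6% of all tested genes. Eef1a1, the cytosolic carrier, was at 2511, 2499 and 2505 FPKM in WT and at 3010.4, 3011 and 3031 FPKM in Gsdmd-/- samples (log2 change 0.27, adjusted p = 1.39e-07). Its exchange factor subunits Eef1b2, Eef1d and Eef1g rose by 0.55, 0.64 and 0.49, and the mitochondrial carrier Tufm and its exchange factor Tsfm by 0.35 and 0.34. Tufm and Tsfm did not pass on the length-adjusted scale (adjusted p = 0.698 and 0.215), and Tsfm did not pass in TPM either (adjusted p = 0.0627). All 6 had the Gsdmd-/- samples wholly above WT, beside 41.2% of all tested genes.

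Mitochondria make glutaminyl-tRNA by amidating glutamyl-tRNA, the product of Ears2, with an enzyme of the subunits Qrsl1, Gatb and Gatc. Gatb was at 3.21, 4.0 and 3.5 FPKM in WT and at 5.25, 5.53 and 5.32 FPKM in Gsdmd-/- samples, without overlap (log2 change 0.48, adjusted p = 6.03e-05). Qrsl1 and Gatc rose by 0.22 and 0.17 with overlapping groups (adjusted p = 0.0254 and 0.0464) and missed the threshold in TPM (adjusted p = 0.510 and 0.825). Mtfmt, which formylates the initiator methionyl-tRNA in mitochondria, had a log2 change of 0.10 (adjusted p = 0.216).

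Of the genes that clear mischarged tRNAs, Aarsd1, an alanyl editing protein, and Dtd1, a D-aminoacyl-tRNA deacylase, rose by 0.56 and 0.36 (adjusted p = 4.33e-05 and 0.00221), but neither passed on the length-adjusted scale (adjusted p = 0.120 and 0.633). Dtd2, another such deacylase, did not pass as deposited (log2 change -0.13, adjusted p = 0.109) but fell in TPM (-0.34, adjusted p = 0.000789) and on the length-adjusted scale (-0.26, adjusted p = 0.00548). Sepsecs, which makes selenocysteinyl-tRNA, was at 2.02, 1.77 and 1.72 FPKM in WT and at 1.14, 0.960 and 0.920 FPKM in Gsdmd-/- samples. It fell (log2 change -0.50, adjusted p = 8.23e-05) but entered the test on its WT level, and it did not pass on the length-adjusted scale (log2 change -0.02, adjusted p = 0.796). Pstk, the kinase acting before it, had a log2 change of 0.14 (adjusted p = 0.307).

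Of 10 genes of tRNA maturation and export 6 rose and 2 fell, beside 40.6% and 36.9% of all tested genes, with a median log2 change of 0.22. In TPM the tally turned: 1, Tsen34, rose and 4 fell, beside 25% and 51% of all tested genes, with a median of 0.03. Of those that fell as deposited, 1 was Trnt1, which adds the CCA end to tRNA (log2 change -0.15, adjusted p = 0.0261), named after its value was seen. Xpot, the exporter of tRNA from the nucleus, fell by 0.61 (adjusted p = 1.10e-06), from 10.5 ± 0.137 to 6.58 ± 0.449 FPKM (SD, n = 3 each). Tsen34 and Tsen54, of the splicing endonuclease, and Rtcb, the tRNA ligase, rose by 0.59, 0.32 and 0.25. Length-adjusted, 1 of the 10, Rtcb, rose and 1, Xpot, fell, beside 30.4% and 30.1% of all tested genes.

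Genes of the amino acid response, the programme in which ATF4 raises synthetases, transporters and amino acid synthesis, were mostly higher. Of 17 listed, 16 were tested, 13 rose and 2, Eif2ak4 and Slc7a11, fell, with a median log2 change of 0.55. These counts stand beside 40.6% and 36.9% of all tested genes. Slc7a11, a cystine transporter, was at 1.52, 1.4 and 1.56 FPKM in WT and at 0.77, 0.78 and 0.78 FPKM in Gsdmd-/- samples, so it entered the test only on its WT level and had to differ. Its direction turned on the length-adjusted scale (log2 change 0.23, adjusted p = 0.0115). Slc7a11 and Cebpb, a partner of ATF4, are named after their values were seen. Asns, asparagine synthetase, was at 31.9, 30.2 and 31.3 FPKM in WT and at 50.9, 47.7 and 47.9 FPKM in Gsdmd-/- samples (log2 change 0.63, adjusted p = 3.65e-08). Phgdh, the first enzyme of serine synthesis, went from 26.5, 27.9 and 27.7 FPKM to 48.6, 48.0 and 49.3 FPKM (log2 change 0.81, adjusted p = 3.85e-09). Neither gene had overlapping groups. Nupr1 and Slc3a2, a stress regulator and the shared chain of amino acid exchangers, rose by 0.86 and 0.68 (adjusted p = 3.55e-09 and 2.31e-08).

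Atf4 itself was at 69.9, 73.9 and 72.8 FPKM in WT and at 89.7, 94.0 and 87.5 FPKM in Gsdmd-/- samples (log2 change 0.32, adjusted p = 5.24e-06), and had a log2 change of 0.0027 on the length-adjusted scale (adjusted p = 0.943). Its protein is set largely by translation, which transcript levels do not show. Eif2ak4 was at 2.54, 2.25 and 2.60 FPKM and at 1.46, 1.80 and 1.85 FPKM (log2 change -0.36, adjusted p = 0.00132), and did not pass length-adjusted (adjusted p = 0.424). On the length-adjusted scale 10 of the 16, Slc7a11 among them, rose and 1, Cebpb, fell, beside 30.4% and 30.1% of all tested genes. The median of the list there was 0.26, and Asns (0.55) and Phgdh (0.45) were among those that rose.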

How the data were processed

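The deposited tables give 1 value per gene and sample with no stated unit. They were read as FPKM made by the authors, since column sums differ and the smallest steps between low values depend on transcript length. Per the submitters' processing notes, Bowtie2 version 2.2.5 and GRCm38.p6 were used. The counting program, its annotation and use of strand are not given in the sources. The members and lists were chosen with earlier results of these data known.

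Log2(FPKM + 1) values were fitted across all genes by limma (version 3.58.1, with R version 4.3.3), using an intensity trend and robust estimation, 3 samples against 3, and p-values were adjusted by Benjamini-Hochberg over all genes with at least 1 FPKM in at least 3 samples. An exact permutation test could not go below 0.1. TPM rescales each sample to the same sum. The trend subtracted on the length-adjusted scale was a spline with 5 degrees of freedom for each, per sample, on GENCODE M21 transcripts linked to RefSeq, found for 98.5% of tested genes. Other settings were a pseudocount of 0.1, a filter of 5 FPKM or none, median ratio scaling, limma without its trend and robust settings, a replicate block and leaving out each sample. The fit was checked on simulated data. Sharing between genes was counted in 50-base words of GENCODE transcripts. All members may be named. Values in every sample were planned for members past the threshold with an absolute log2 change of at least 0.3 and for Wars, Gars and Kars, and Iars, Nars, Iars2, Hars2, Yars2 and Mars2 were added after values were seen. Of the tRNA maturation and amino acid response lists, the 4 genes with the smallest p and Atf4, Asns and Eif2ak4 are named. Positions and promoter windows are from RefSeq in GRCm38.p6.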

Additional observations from a re-analysis of the deposited data

How the results depend on the processing

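In TPM 2498 genes rose. The median log2 change of the cytosolic list was 0.18 in TPM, 0.41 with a pseudocount of 0.1, 0.37 with median ratio scaling, and 0.37 to 0.41 when each sample was left out. That of the mitochondrial list was -0.0083 in TPM, 0.20 with a pseudocount of 0.1, 0.41 with a filter of 5 FPKM (which leaves fewer members) and 0.18 on the length-adjusted scale. Of mitochondrial members, 4 rose and 1 fell with the filter of 5 FPKM, 1 fell with no filter, and 1 to 3 fell when each sample was left out, 1 of them without WT replicate 2. On the length-adjusted scale 1 cytosolic member fell. Directions turned in TPM for Nars (-0.19), Tars (-0.0044), Farsb (-0.0403), Ears2 (-0.0083), Pars2 (-0.0512) and Wars2 (-0.0157). They turned on the length-adjusted scale for Iars (0.12), Farsa (-0.0202), Ears2 (-0.21), Iars2 (0.12), Lars2 (0.12), Nars2 (0.26) and Pars2 (-0.0434). When each sample was left out, Nars2 ran from -0.14 to 0.0189 and Lars2 from -0.0399 to 0.0061. The cause of these shifts was not tested.

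The 35 tested members kept their direction and their side of the threshold with a pseudocount of 0.1, with median ratio scaling and with the replicate block, where 17 cytosolic members rose and 2 fell and 7 mitochondrial members rose and 3 fell. Same-numbered samples had correlations of their deviations across genes of -0.08, 0.13 and 0.01, and samples of unlike number had -0.17 to 0.16. With 3 samples a group these values cannot show whether the numbers pair the samples. Mars2, tested with no filter, had a log2 change of -0.16 (limma, adjusted p = 0.148). The lowest estimates were 53.2 fragments per library for a tested mitochondrial member (Pars2) and 458 for a cytosolic one (Yars).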
